A study of Homo sapiens with 13 samples.

Results

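The windows described here are stretches of RNA assigned to protein-coding transcripts, at which both forms of the splicing factor SRSF2 had a strong mean signal. By that choice, mean binding was scaled from one form to the other and not switched on or off. Means alone do not show whether each sample had the binding. A window was counted when the authors' deposited table named a protein-coding transcript for it and gave a mean of at least 3 CPM (read counts scaled to the library total) for both proteins. In all, 1176 of the table's 8100 windows met this, or 23.1% of its 5081 protein-coding windows. They lay in 155 of the 1591 genes with a protein-coding window and merged, where they overlapped, into 216 regions. The windows were chosen by the mean CPM of both proteins, and each window of the table had passed the authors' own test of P95H against WT. Levels, log2 changes, adjusted p and standard errors of these windows are therefore a description and carry no test here.

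The cells were HEL, a human erythroleukemia line, stably given either SRSF2 with the P95H substitution or wild-type SRSF2 (WT). All carried a construct induced by doxycycline, at 1 µg/ml for 36 hours before HITS-CLIP (4 P95H and 4 WT samples, immunoprecipitated through a Flag tag) and for 48 hours before RNA-seq (2 P95H and 2 WT libraries). Another RNA-seq library, from P95H cells labelled uninduced, was left out of the main RNA test. It entered an alternative fit, the scaling of the RNA CPM values, and values given for it by name or over all libraries. The endogenous SRSF2 gene was not removed as far as the labels say, the construct's protein level is not given, and whether each line is 1 clone is not stated.

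SRSF2 belongs to the SR proteins, which bind exons through an RNA recognition domain and recruit the spliceosome through a domain rich in arginine and serine. Its RNA domain recognises short motifs of the form CCNG and GGNG, and proline 95 lies just after that domain. Substitutions there recur in myelodysplastic syndromes and are known to shift the preference towards CCNG and away from GGNG. HITS-CLIP crosslinks protein to RNA with ultraviolet light and sequences the RNA that comes down with the protein.

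Base sequence was at hand for 3 of the 1176 windows, all in UPF3B (ENSG00000125351), a factor of nonsense-mediated decay that marks spliced junctions. They are shown because motif content is what the P95H change is known for. They were read from the RefSeq promoter table (GRCh38.p14), with the deposited coordinates taken as 1-based and inclusive, so the first or last base may be off by 1. Capitals mark every match on the transcribed strand, the one searched, to CCNG or GGNG or to the related CGNG or GCNG, which may overlap one another. The 3 windows run 5′ to 3′ along the minus strand of chromosome X, with ends at 119852932 to 119852952, 119852921 to 119852941 and 119852916 to 119852936.
UPF3B window 1: GCCGcttcaGCGGGGGacgta
UPF3B window 2: GGGGGacgtagccatgaagga
UPF3B window 3: acgtagccatgaaggaagaga

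These UPF3B windows begin 11, 22 and 27 bases after the annotated start of the gene. GGNG was present in 2 of the 3 and CCNG in none. At those 3 offsets GGNG occurs in 42.7%, 43.0% and 41.2% of the 35116 promoter entries, and CCNG in 40.2%, 37.7% and 38.6%. Among the 116 windows of any kind in the deposited table whose sequence could be read this way, GGNG was in 50.9% and CCNG in 28.4%. In the authors' deposited table window 1 had 4.92 ± 2.97 CPM in P95H and 10.60 ± 4.08 CPM in WT (authors' mean ± SEM), a log2 change of -1.10. Window 3, which holds none of the 4 motifs, had 4.92 ± 2.97 CPM in P95H and 10.41 ± 3.95 CPM in WT, a log2 change of -1.07. Just upstream, 3 further UPF3B windows that missed the minimum of 3 CPM in P95H, all with a match, had deposited log2 changes of -1.41, -1.65 and -1.62. These windows overlap and share reads, so nothing is read from the motifs.

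Binding was lower in P95H in 1150 of the 1176 windows, spread over 141 genes and 200 regions, and higher in 26 windows of 15 genes. Over all 8100 windows of the authors' deposited table, 77.7% were lower and 22.3% higher in P95H. The rule used this same contrast, so nothing is read from the difference in those shares. The deposited log2 change of P95H over WT in the lower windows had a median of -1.51 and ran from -3.90 to -1.0. It was between 2-fold and 4-fold in 901 windows (78.3%), between 4-fold and 8-fold in 186 (16.2%) and 8-fold or more in 63 (5.48%). The last group came from 7 genes, PTMA, HMGB1, ANP32B, ANP32E, LYAR, EIF5B and PELP1. Elsewhere among the table's protein-coding windows the log2 change reached 9.42 in size.

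**Figure D1:**
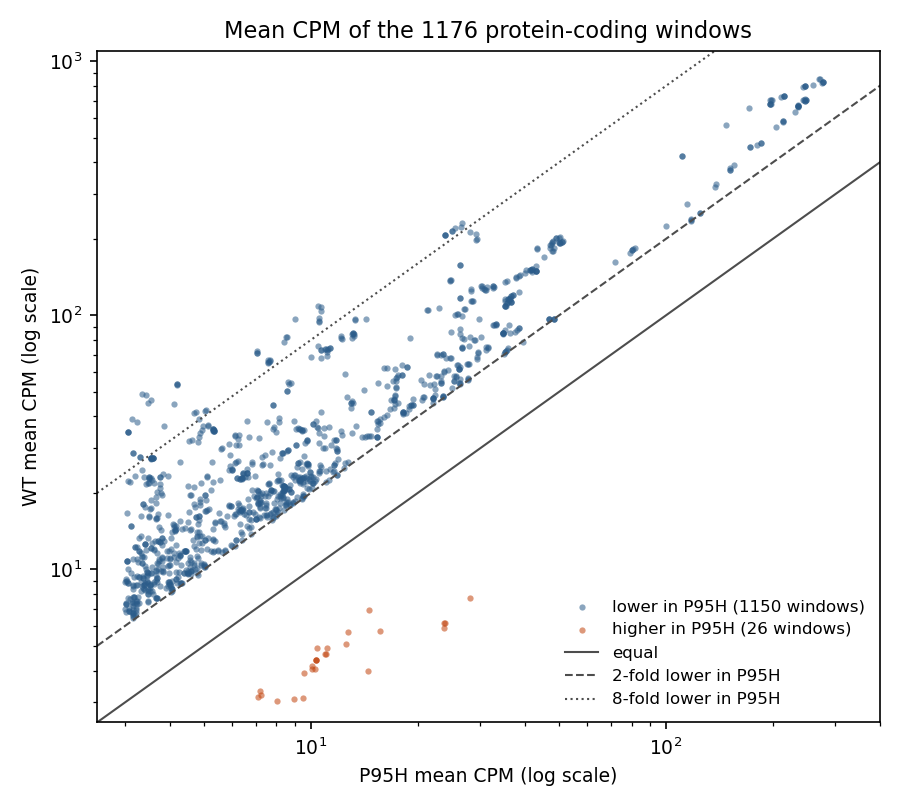
Each point is 1 of the 1176 protein-coding windows, with the authors' mean CPM in P95H on the horizontal axis and in WT on the vertical axis, both on log scales. The 1150 blue windows (lower in P95H) lie near or above the dashed line of a 2-fold lower level in P95H, and the 26 orange windows lie below the solid line of equal levels.

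Levels spanned a wide range. In P95H the authors' mean CPM had a median of 8.09 and ran from 3 to 276.66, and in WT it had a median of 23.4 and ran from 3.03 to 851.69. At the threshold, a GAPDH window with 3 CPM in P95H and 6.97 CPM in WT was counted. A TRIM44 window with 2.97 CPM in P95H and 12.09 CPM in WT was not. Few genes held many windows. The 10 genes with most windows held 488 of the 1176 (41.5%), and 34 genes held a single window.

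Acidic histone chaperones and related nuclear proteins gave most windows of the 15 gene lists used, with 10 of 18 listed genes and 265 windows, all of them lower in P95H. Of all 1176 windows 97.8% were lower, so nothing is read from the direction in this list or those below. Overlapping windows share reads and are not replicates, and NCL, ANP32B and PTMA held most of the 265. The median log2 change in the authors' deposited table was -1.88 over these windows, against -1.50 over all 1176. NCL encodes nucleolin, which packages ribosomal RNA genes and their transcripts, and it held 102 windows in 4 regions of chromosome 2. Its strongest window, by the average of the P95H and WT means, had 271.7 ± 242.6 CPM in P95H and 851.7 ± 784.2 CPM in WT (authors' mean ± SEM), a log2 change of -1.65. The main NCL region, 231460670 to 231460842 on the minus strand, joined 84 windows with deposited changes from -2.11 to -1.12.

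ANP32B, an acidic leucine-rich chaperone of histones, held 75 windows in 5 regions of chromosome 9. In its first region, 98005070 to 98005163 on the plus strand, the deposited log2 changes ran from -2.42 to -1.81, and in another, 98012411 to 98012482, from -3.48 to -2.76. The highest means in that region were 12.26 CPM in P95H and 108.40 CPM in WT. The deposited changes of these regions of the same gene did not overlap, a difference that was not tested. Its relative ANP32E, a chaperone of the histone variant H2A.Z, had deposited changes from -3.33 to -2.92 in 8 windows.

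PTMA encodes prothymosin alpha, a small acidic protein that binds linker histone, and its range of changes was the widest of the 155 genes, from -3.90 to -1.05 on the log2 scale. Its region at 231711339 to 231711394 on chromosome 2 had deposited changes from -1.45 to -1.14, and its region at 231711886 to 231711986, on the same strand and under 1 kb downstream, from -3.90 to -2.49. The PTMA window with the lowest change of the 1176 in the authors' deposited table had 3.34 ± 1.32 CPM in P95H and 48.89 ± 37.70 CPM in WT. The strongest PTMA window had 81.60 ± 41.03 CPM in P95H and 183.56 ± 106.12 CPM in WT. The more strongly scaled region downstream reached 29.42 CPM in P95H and 230.95 CPM in WT, so it was lower than its neighbour in P95H and higher in WT. The other listed chaperones with windows were CHAF1A, NAP1L1, PTMS, NPM1, ANP32A and SET.

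**Figure D2:**
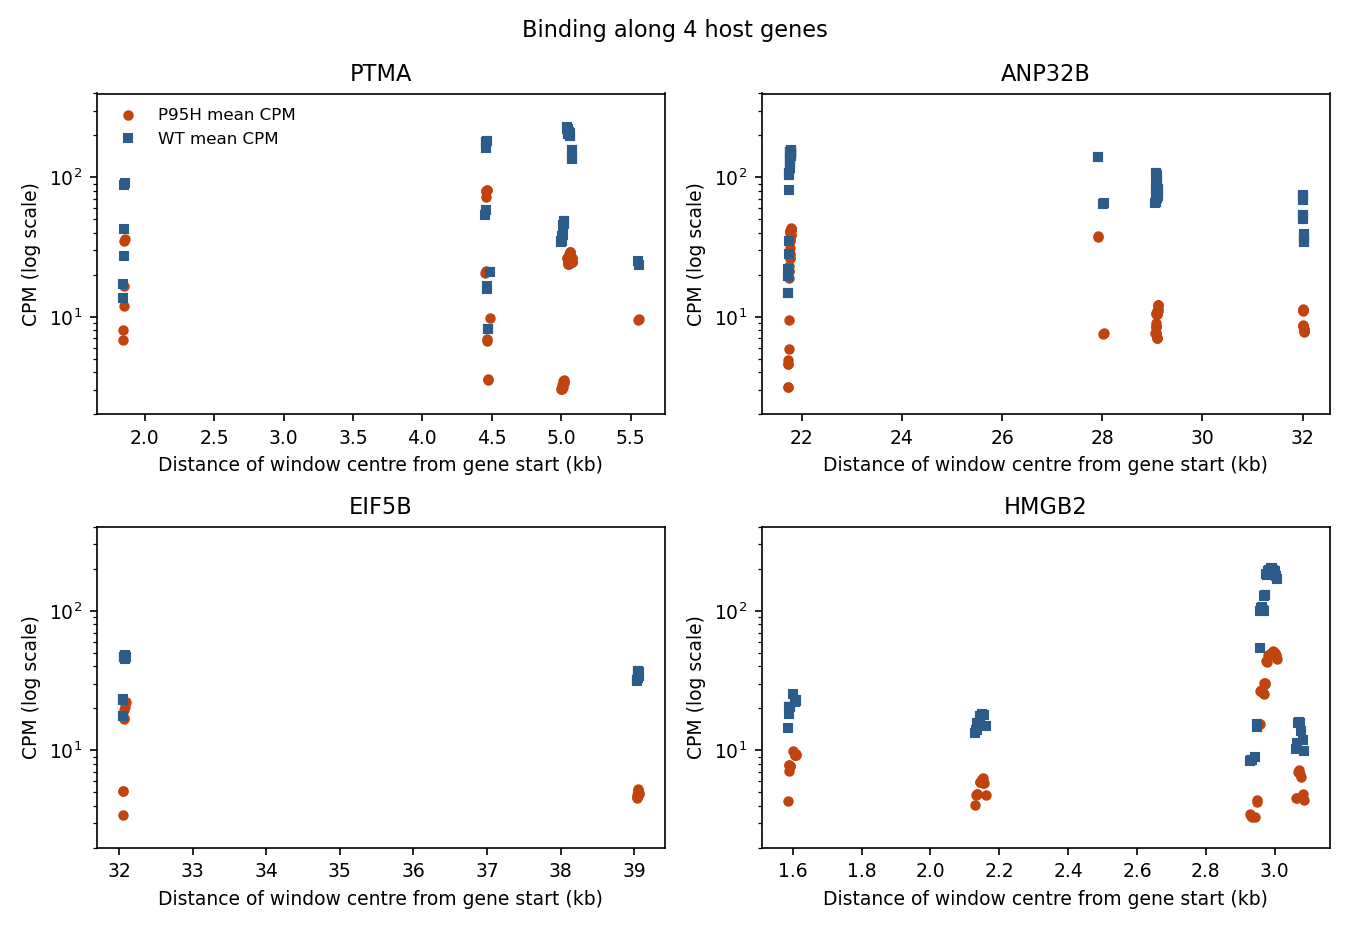
Authors' mean CPM of each window (log scale) in P95H (orange circles) and WT (blue squares) against its distance from the gene's annotated start in kb, for PTMA, ANP32B, EIF5B and HMGB2. WT lies above P95H at every window shown, and the gap is wider in some regions of a gene than in others, as in EIF5B, where it is -2.30 to -1.04 on the log2 scale in the first region and -3.0 to -2.84 in the second.

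High-mobility-group genes, whose products bend DNA or loosen nucleosomes, gave 112 windows in 4 of 10 listed genes, all lower in P95H, with a median deposited log2 change of -1.98. HMGB1 held 30 windows in 1 region of chromosome 13, 30461389 to 30461485 on the minus strand, with changes from -3.77 to -2.28. Its strongest window had 14.27 ± 12.65 CPM in P95H and 96.56 ± 84.74 CPM in WT in the authors' deposited table. HMGB2 held 68 windows in 4 regions of chromosome 4, and its strongest had 50.28 ± 41.70 CPM in P95H and 203.76 ± 176.40 CPM in WT. Its changes ran from -2.12 to -1.12 and did not overlap those of HMGB1. HMGB3 held 11 windows with changes from -2.84 to -2.42, and HMGN5 was the remaining gene.

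Heat shock proteins and chaperones gave 123 windows in 5 of 33 listed genes, again all lower in P95H, with a median deposited log2 change of -1.63. HSP90AA1 and HSP90AB1 encode the inducible and constitutive cytosolic HSP90, and HSP90B1 its counterpart in the endoplasmic reticulum. HSP90AB1 had 124.53 ± 84.24 CPM in P95H and 252.57 ± 191.34 CPM in WT at its strongest window, a log2 change of -1.02, in the authors' deposited table. In another HSP90AB1 region, 44250282 to 44250375 on chromosome 6, 33 windows had changes from -1.96 to -1.42. HSP90AA1 had 37.15 ± 24.87 CPM in P95H and 120.35 ± 95.34 CPM in WT, a change of -1.71. HSP90B1 had 38.55 ± 20.89 CPM in P95H and 89.02 ± 45.95 CPM in WT, a change of -1.21, and CALR and HSPA9 completed the list.

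Translation factors gave 51 windows in 4 of 36 listed genes, of which 49 were lower and 2 higher in P95H. EIF3A, the largest subunit of the initiation factor eIF3, had 17.20 ± 12.29 CPM in P95H and 43.21 ± 33.19 CPM in WT in the authors' deposited table. EIF5B, which joins the ribosomal subunits at the start codon, had 22.30 ± 11.32 CPM in P95H and 48.63 ± 21.51 CPM in WT at its strongest window. Its second region, 99376381 to 99376428 on chromosome 2, had changes from -3.0 to -2.84. Ribosomal protein genes gave 9 windows in 5 of 77 listed genes, RPS6, RPL8, RPL3, RPL6 and RPLP0, with 8 lower and the RPLP0 window higher. The 2 RPL3 windows overlapped SNORD43, annotated as a small nucleolar RNA, and AL022326.1, annotated as a microRNA, on the same strand. RPS6, part of the small subunit, had 9.05 ± 7.36 CPM in P95H and 18.52 ± 9.86 CPM in WT.

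The hnRNPs and other splicing regulators gave 45 windows in 10 of 45 listed genes, 44 of them lower in P95H. HNRNPM, a repressor of exon inclusion, had 15.36 ± 8.97 CPM in P95H and 35.81 ± 25.06 CPM in WT at its strongest window in the authors' deposited table. Core spliceosome genes gave 38 windows in 5 of 37 listed genes, all lower. SNRPD1, a subunit of the Sm ring, had 29.55 ± 23.13 CPM in P95H and 71.46 ± 60.38 CPM in WT, and SF3A3, of the U2 particle, had 27.66 ± 14.13 CPM in P95H and 56.82 ± 36.39 CPM in WT. Of the 17 SR protein genes listed, 9 had a protein-coding window in the table and SRSF4 alone met the rule, with 1 window at 5.22 ± 2.99 CPM in P95H and 11.79 ± 7.57 CPM in WT.

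Nonsense-mediated decay and exon junction genes gave 8 windows, in UPF3A, UPF3B and CASC3, all lower in P95H. Their median deposited log2 change was -1.07. UPF3A, the paralog of UPF3B, had 11.87 ± 10.18 CPM in P95H and 23.56 ± 20.09 CPM in WT at its strongest window in the authors' deposited table. Of 15 genes listed as mis-spliced with mutant SRSF2, 6 had a protein-coding window in the table, and NUMA1 and HNRNPA2B1 met the rule. HNRNPA2B1 had 3.73 ± 2.43 CPM in P95H and 10.95 ± 7.35 CPM in WT, a change of -1.65. Cytoskeletal genes gave 22 windows in TPM3, MYL6 and MYH9, all lower, and of the glycolytic list GAPDH gave 2. No SR protein kinase, histone or erythroid and megakaryocyte gene of the lists met the rule, though 1, 1 and 8 of them had a protein-coding window elsewhere in the table.

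Outside the lists, GTF3C6, a subunit of the RNA polymerase III factor TFIIIC, held 27 windows in 1 region and had 34.80 ± 29.78 CPM in P95H and 85.08 ± 74.80 CPM in WT in the authors' deposited table. PPM1G, a nuclear phosphatase, had 48.37 ± 39.96 CPM in P95H and 97.00 ± 85.37 CPM in WT. LYAR, a nucleolar protein of cell growth, was among the most strongly scaled. All 14 of its windows had changes from -3.33 to -3.04, and its strongest had 3.15 ± 2.35 CPM in P95H and 28.70 ± 25.74 CPM in WT. METAP2, a methionine aminopeptidase named after its values were seen, had 4.29 ± 2.59 CPM in P95H and 26.52 ± 17.56 CPM in WT at its strongest window.

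**Figure D3:**
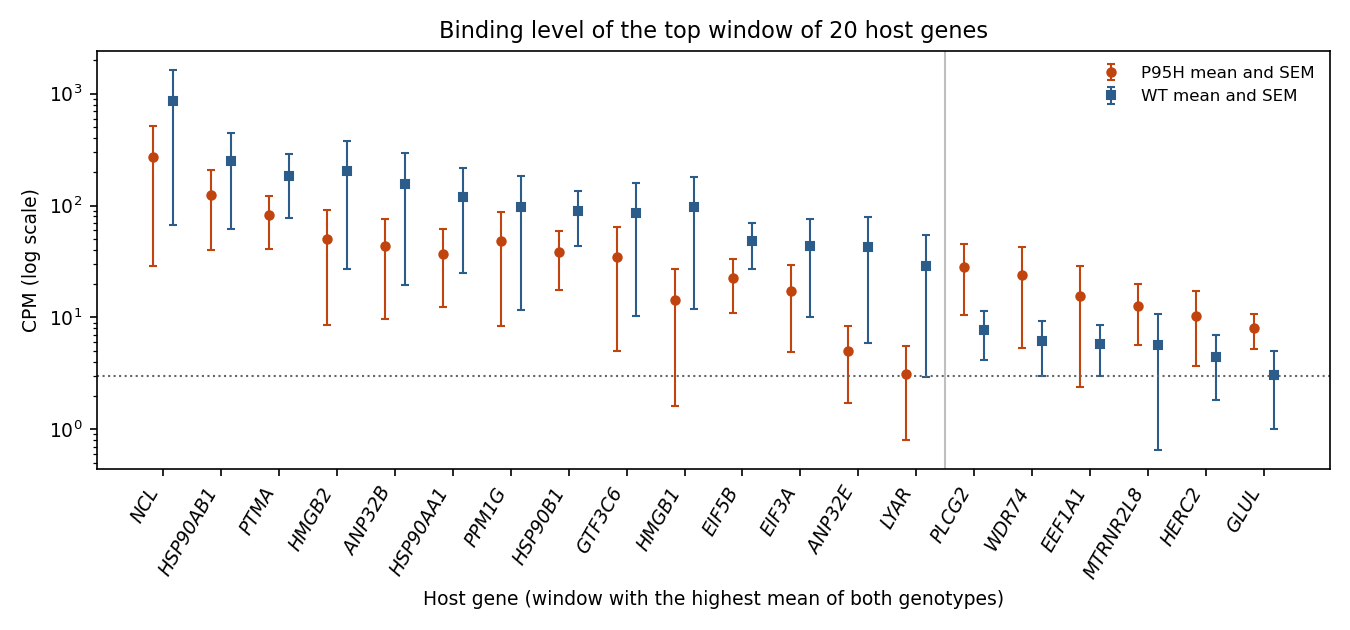
Authors' mean CPM (log scale) and SEM in P95H (orange circles) and WT (blue squares) at the strongest window of 20 host genes. The 14 genes left of the grey line were lower in P95H and the 6 to its right higher, the dotted line marks the minimum of 3 CPM, and most bars of P95H and WT overlap.

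The 26 windows that were higher in P95H lay in AGPAT6, AKAP17A, ANKZF1, EEF1A1, ERCC5, GLUL, HERC2, MTRNR2L8, MTRNR2L12, PLCG2, RPLP0, SND1, WDR74, YBX1 and ZNF518B. Their deposited log2 changes ran from 1.04 to 1.99, a smaller range than among the lower windows. They were far fewer, and their WT means, 3.03 to 7.75 CPM, lay near the rule's minimum, so nothing is read from that. Of the 26, 6 sat where another gene is annotated on the same strand. The 3 windows of WDR74 (chromosome 11, 62841756 to 62841786, minus strand) overlapped RNU2-2P, annotated as a small nuclear RNA of the U2 kind. The strongest had 23.83 ± 18.46 CPM in P95H and 6.17 ± 3.17 CPM in WT in the authors' deposited table. The 2 windows of PLCG2, a phospholipase gene, overlapped RN7SKP176, a copy of the 7SK RNA, and the stronger had 28.13 ± 17.58 CPM in P95H and 7.75 ± 3.56 CPM in WT.

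MTRNR2L8 and MTRNR2L12 are nuclear genes derived from mitochondrial ribosomal RNA, and the stronger window of MTRNR2L8 had 12.73 ± 7.02 CPM in P95H and 5.69 ± 5.04 CPM in WT in the authors' deposited table. In RNA-seq MTRNR2L8 stood at 1.60 and 2.79 CPM in P95H and 1.54 and 2.11 CPM in WT. MTRNR2L12 stood at 2.26 and 5.11 CPM in P95H and 3.02 and 5.08 CPM in WT. Whether reads of mitochondrial ribosomal RNA itself were placed in these windows was not tested. EEF1A1, the elongation factor that delivers aminoacyl-tRNA, had 15.66 ± 13.29 CPM in P95H and 5.74 ± 2.77 CPM in WT. HERC2, a large ubiquitin ligase gene, held 4 overlapping windows, with 10.37 ± 6.70 CPM in P95H and 4.39 ± 2.58 CPM in WT. GLUL, glutamine synthetase, had 8.01 ± 2.76 CPM in P95H and 3.03 ± 2.02 CPM in WT, and it was the single higher window whose ranges of mean ± SEM did not overlap. YBX1, an RNA-binding cold shock protein, was the single gene with windows in both directions. It had 9.54 ± 4.16 CPM in P95H and 3.92 ± 1.68 CPM in WT at 42696254 to 42696274 on chromosome 1. Further along, at 42696759 to 42696779, it had 8.65 ± 8.07 CPM in P95H and 18.46 ± 12.31 CPM in WT.

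Reads of many of these transcripts could also match near-identical copies. For 22 of the 155 genes the authors' deposited table also held windows in a pseudogene named after the gene, 582 windows in all of its 1023 pseudogene windows. HMGB1 copies had 139 windows, all lower in P95H, with a median log2 change of -2.85, against -2.74 over the HMGB1 windows described above. PTMA copies had 147 windows with a median of -1.47, against -2.51 in PTMA. HERC2 copies had 32 windows with a median of 1.23, against 1.23 in HERC2, and the 20 windows of EEF1A1 copies had a median of 1.47, against 1.53 in EEF1A1. YBX1 copies had 6 windows, all higher in P95H, with a median of 1.24, near the 1.25 of the single higher YBX1 window. Some copies also stood at almost the same level as the gene. The highest means over HMGB1 copies were 14.3 CPM in P95H and 96.5 CPM in WT, against 14.27 CPM in P95H and 96.56 CPM in WT in HMGB1. Those over UPF3A copies were 11.87 CPM in P95H and 23.52 CPM in WT, against 11.87 CPM in P95H and 23.56 CPM in WT in UPF3A. Those over SET copies were 3.88 CPM in P95H and 23.81 CPM in WT, against 3.83 CPM in P95H and 23.70 CPM in WT in SET. The single windows of EIF3C and EIF3CL had identical values, 3.98 CPM in P95H and 8.95 CPM in WT, and are counted here as 2 windows and 2 genes. No source used here says how reads that match several loci were placed, so the counts of windows and genes may include the same reads more than once. Another annotated gene overlapped 78 of the 1176 windows, on the same strand in 50.

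The standard errors were large beside the means. The SEM divided by the mean CPM had a median of 0.70 in P95H and 0.744 in WT over the 1176 windows. Over the whole of the authors' deposited table this ratio reached 1 in both genotypes and never passed it at means of 0.5 CPM or more. That is the limit for a standard error over 4 samples, met when 1 sample holds every read. Above a ratio of 0.577 a single sample must hold over 50% of the summed CPM. This was so for P95H in 846 windows and for WT in 920, and for both in 717. At the strongest NCL window 1 sample held at least 91.7% of the P95H total and 1 at least 93.9% of the WT total. At the strongest EIF5B window the least share was 46.9% in P95H and 43.6% in WT. Whether the same-numbered P95H and WT samples were high together cannot be read from means. Across the 216 regions, each taken at its strongest window, the ratios in P95H and WT had a Pearson correlation of 0.495, given as a description, since neighbouring regions share samples and genes.

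**Figure D4:**
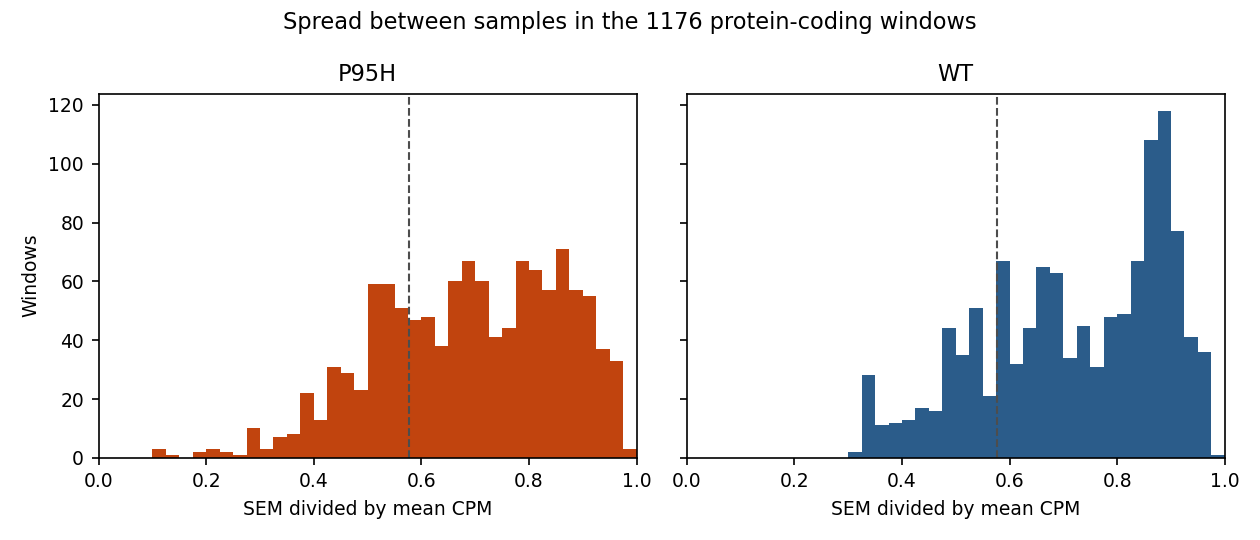
Histograms of the SEM divided by the mean CPM over the 1176 protein-coding windows, in P95H (left) and WT (right), with windows on the vertical axis. Right of the dashed line at 0.577, where 846 windows lie in P95H and 920 in WT, 1 of the 4 samples must hold over 50% of the summed CPM.

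The ranges of mean ± SEM of P95H and WT did not overlap in 86 of the 1176 windows, 85 lower and 1 higher in P95H, from 25 genes. In the authors' deposited table as a whole, 31.2% of the 8100 windows had ranges that did not overlap. The rule leaves out the protein-coding windows under 0.1 CPM in P95H or in WT, where this share was 73.5% and 80.5%. Nothing is therefore read from the difference between the 86 windows and the whole. The 86 included 15 windows of HMGB2, 10 of METAP2, 9 of PTMA, 8 of ARL6IP4 and 4 each of EIF5B, HMGB1, NCL and AP000275.65. The 8 ARL6IP4 windows also lie in RP11-197N18.2 and the 4 AP000275.65 windows in C21orf59, on the same strand, and ARL6IP4 RNA stood at 0.279 and 0.766 CPM in P95H and 0.440 and 0.842 CPM in WT, so the gene named for these windows is in doubt. An HMGB2 window with one of the tightest values, 173332047 to 173332067 on chromosome 4, had 7 ± 0.87 CPM in P95H and 15.76 ± 5.73 CPM in WT. SET, a histone chaperone with 1 window, had 3.83 ± 1.30 CPM in P95H and 23.70 ± 16.18 CPM in WT. The ratio of the mean CPM gave the same 26 higher and 1150 lower windows as the deposited log2 change. No source used here gives the model of the authors' test.

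RNA-seq, which the rule did not use, asked whether the host transcripts themselves differed between P95H and WT cells. The libraries held 38052389 and 44618943 counts in P95H and 45005605 and 42112595 in WT. SRSF2 stood at 223 and 252 CPM in the P95H libraries and at 222 and 241 CPM in the WT libraries, a log2 difference of 0.05 (SE 0.11). In the single uninduced P95H library it stood at 286 CPM, so these counts show no higher SRSF2 RNA with doxycycline. RNA of the construct and of the cells' own gene is not separated in them. Of 16 erythroid and megakaryocyte markers fixed for HEL cells, 14 exceeded 1 CPM in each of the 5 libraries, with PF4 under 1 CPM throughout and HBE1 under it in 1 P95H library. Markers of lymphoid, monocyte, granulocyte, epithelial and fibroblast cells summed to 13.6 and 9.70 CPM in P95H and to 14.6 and 8.93 CPM in WT. Most of this was LYZ, at 6.55 to 11.4 CPM, and CSF1R, at 1.26 to 2.29 CPM, while the other 14 of 16 were under 1 CPM and ELANE, EPCAM and KRT19 at 0 in every library.

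No host transcript passed the test in the fit without a replicate block. EdgeR's quasi-likelihood test called 0 of the 152 host genes that passed its filter, as it called 0 of all 22007 genes (0%), with 1 host gene and 227 genes (1.03%) at an unadjusted p under 0.05. DESeq2 also called 0. With the replicate number added as a block, edgeR's test gave 13 host genes and 1859 of all 22007 genes an unadjusted p under 0.05. In that fit 2 host genes were called, so the outcome depends on whether the block is used. The other 3 host genes, AKAP17A, ISY1-RAB43 and AP000275.65, did not pass the filter on low counts. Log2 RNA changes of P95H over WT ran from -0.50 in SMIM24 to 0.53 in EIF3C, with 144 of the 152 (94.7%) under 0.25 in size, against 71.4% of all 22007 genes. Host genes were more highly expressed, at a median of 187 CPM against 4.21 CPM over all genes. The largest RNA change in size was thus under the 2-fold (1 on the log2 scale) that every window of the CLIP table had to pass, so that RNA and binding changes are not compared in size. RNA and binding were sampled after 48 and 36 hours. The median RNA change was -0.034 over host genes and 0.002 over all genes, and 108 of the 152 (71.1%) were negative against 49.5% of all genes. That count of negative host genes was 88 to 123 under the alternative settings. It was out of 152, or out of 149 where at least 50 counts on average were required. Of all genes, 46.5% to 51.9% were negative under those settings. In bulk RNA, fewer cells that express a gene and less of its RNA per cell cannot be told apart.

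Among the genes with most windows, NCL had 2556 and 2624 CPM in P95H and 2536 and 2631 CPM in WT, a log2 RNA change of 0.01 (SE 0.13). PTMA had 1804 and 1756 CPM in P95H and 1912 and 1843 CPM in WT, -0.07 (SE 0.12). HMGB1 had 537 and 499.9 CPM in P95H and 548 and 502 CPM in WT, -0.01 (SE 0.11). In NCL and HMGB1 the libraries of P95H and WT overlapped, and in PTMA both P95H libraries lay below both WT libraries. ANP32B had 420 and 395 CPM in P95H and 476 and 418 CPM in WT, -0.13 (SE 0.12). LYAR had 125 and 119 CPM in P95H and 121 and 121 CPM in WT, 0.02 (SE 0.10).

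EIF3C, a core subunit of eIF3, had 30.8 and 29.5 CPM in P95H and 20.9 and 21.3 CPM in WT, a log2 RNA change of 0.53 (SE 0.12, edgeR adjusted p 0.9999). Its libraries did not overlap. EIF3CL, its near-identical copy, is also among the 155 genes and had 3.55 and 3.29 CPM in P95H and 4.65 and 2.85 CPM in WT, -0.13 (SE 0.30), so the split of RNA reads between them is uncertain. CTR9, of the PAF1 elongation complex, had 333 and 393 CPM in P95H and 357 and 637 CPM in WT, -0.45 (SE 0.26), and its libraries overlapped. These were the 2 host genes called when the replicate number was added as a block, a fit that called 84 of 22007 genes (0.382%). With every gene above 0 counts kept, the test called 15 of 38948 genes (0.0385%) and no host gene. Among the 15 genes higher in binding, PLCG2 had 35.3 and 34.0 CPM in P95H and 40.7 and 40.3 CPM in WT, -0.22 (SE 0.11). GLUL had 640 and 375 CPM in P95H and 564 and 341 CPM in WT, 0.17 (SE 0.32), with larger differences within each genotype than between them. Each P95H library was above the WT library of the same number, by 0.19 and 0.15 on the log2 scale. That SE is from the fit without the replicate block.

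**Figure D5:**
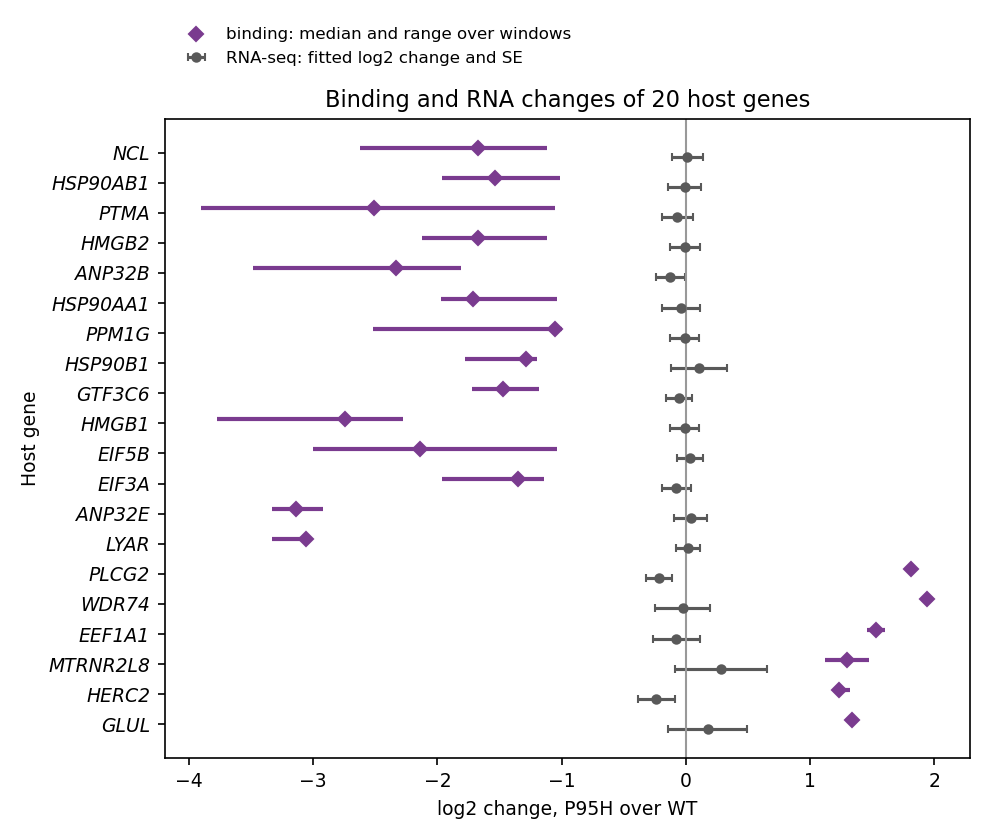
Log2 change of P95H over WT in 20 host genes, with binding as the median (purple diamond) and range over the gene's windows from the authors' deposited table, and RNA as the fitted value and SE from edgeR (grey). RNA values of these genes lie between -0.24 and 0.28, while each binding value is at least 1 in size, as the authors' selection of windows requires.

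Along the gene, from annotated start to end and introns included, the windows lay at a median of 71.4% of the way, with quartiles at 48.2% and 86.2%. Windows lower in P95H had a median of 71.4% and the 26 higher ones of 37.1%. The higher ones ran from 0.35% in WDR74 to 99.7% in PLCG2. Overlapping windows were counted separately, among them 4 of HERC2 at 10.7% and 3 of WDR74 under 0.46%, so nothing is read from the difference. Which exon, intron or untranslated part a window falls in was not analysed here. The 544 protein-coding windows under 0.1 CPM in P95H had a median log2 change of 5.22 in size in the authors' deposited table, and the 303 under 0.1 CPM in WT one of 4.75, against 1.51 in the 1176. These differences in size follow from the rule and are given as description.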

How the data were processed

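The members and gene lists were chosen with earlier results of these data known. HITS-CLIP values are the mean CPM and its standard error per genotype, the log2 change of P95H over WT and the FDR (an adjusted p-value) of each window, as the authors deposited them for 4 P95H and 4 WT samples. Per the file headers and values, every entry passed an FDR of 0.05 and differed 2-fold or more, so binding that differed less is outside what is described, and no value per CLIP sample was used. The CLIP depth is unknown. RNA-seq values are raw counts per gene, as deposited by the authors. TopHat2 2.0.14, STAR 2.5.3a, edgeR and the build GRCh38.p3 are listed in the submitters' processing notes without their roles, and coordinates are given as deposited.

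Each position was counted once, by its first entry, and windows that overlapped on 1 strand were merged into regions. The share that 1 sample must hold follows from the SEM of 4 values that are never negative. RNA counts were tested with edgeR 4.0.16 (TMM, filterByExpr, quasi-likelihood test, two-sided, Benjamini-Hochberg over all genes, threshold 0.05) in R 4.3.3, on 2 P95H and 2 WT libraries, after a check on simulated counts. RNA levels are CPM, not scaled to gene length. Alternatives used DESeq2 1.42.0, other filters and scalings, a replicate block and single libraries left out. Labels call the samples biological replicates. Genes were named by most windows, highest CPM, largest change in each direction, up to 3 per list and RNA calls. METAP2, SET, ARL6IP4, AP000275.65, YBX1, SMIM24, EIF3C, CTR9, TRIM44 and others given only as list members were named after their values were seen.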

Additional observations from a re-analysis of the deposited data

How the results depend on the processing

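With a mean of at least 2 CPM in both proteins, 61 windows were higher in P95H and 237 genes held windows, against 26 and 155 at the minimum of 3 CPM. With at least 5 CPM, 8 windows were higher, and there were 118 regions and 88 genes. At an FDR of the authors of at most 0.01, 11 windows were higher, with 138 regions and 99 genes. Asking that ranges of mean ± SEM do not overlap left 85 lower windows and 1 higher window. GGNG was in 1 window when 10 bases on each side had to be known, since 1 window had them, and in 1 when each merged region was counted once, against 2 of 3. Other counts, among them 20 higher and 1106 lower windows without same-strand overlaps and 18 higher and 827 lower windows without genes that have pseudogene copies (both chosen after seeing the data), stayed within 1.5 times of those reported. With the replicate number as a block, edgeR called 84 genes, of which 2 were host genes, EIF3C and CTR9 (adjusted p 0.00312 and 0.0305). The numbers are not stated to pair the samples, and deviations of same-numbered libraries had a correlation of 0.53 across genes. With no filter on low counts it called 15 genes and 0 host genes. DESeq2, other scaling, a higher count filter, all 5 libraries and each library left out in turn (0 to 0 genes) gave 0 calls. The causes were not tested. No CLIP sample could be left out, since means and SEM alone were used, and 2 RNA libraries per genotype limit what that test can call.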
